A study of Mus musculus with 24 samples.

Results

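The transcripts described here are 10 nuclear genes whose proteins join, divide or mark mitochondria for removal: Opa1, Mfn1 and Mfn2 (fusion), Dnm1l, Fis1 and Mff (fission), and Bnip3, Bnip3l, Fundc1 and Pink1 (mitophagy). They were chosen by name and matched to the gene symbols of the deposited tables, and all 10 were present among the 10393 genes of the 16 h table and among the 7723 genes of the 72 h table. The hearts came from wild-type mice, and the labels give neither strain, sex nor age. At 16 h there were 4 groups: V, given vehicle; DOX, given doxorubicin at 25 mg/kg; H, given 10 mg/kg of hesperitin daily; and DOXH, given doxorubicin and hesperitin. At 72 h the groups analysed were V and DOX. Each group held 3 libraries, 18 in all, and every sample label of these groups gives batch 1, although 1 DOX library of 72 h has a number that matches no label. The labels do not say how many animals stand behind a library. The p-values therefore measure the spread between these libraries, which may be technical. Doxorubicin, an anthracycline used against cancer, damages the heart as a side effect, and hesperitin (usually spelled hesperetin) is a citrus flavanone.

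Mitochondria form a network that is shaped by opposed membrane reactions. Mitofusins tether and join the outer membranes and Opa1 joins the inner membranes and shapes the cristae, while the dynamin-related GTPase encoded by Dnm1l is recruited by outer-membrane adaptors such as Mff and Fis1 to cut the organelle. Damaged mitochondria are handed to autophagosomes either through outer-membrane receptors that bind LC3 proteins, among them Bnip3, Bnip3l (also called Nix) and Fundc1, or through the kinase Pink1, which builds up on depolarised mitochondria. In the adult heart, cardiomyocytes are densely packed with mitochondria, and loss of fusion or fission proteins in these cells is known to impair contraction.

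Values are given as CPM, which are counts scaled within each table to the library total times a TMM factor for library composition. Levels are therefore compared only between libraries of the same time. The factors at 16 h were 1.07, 1.08 and 1.15 in DOX and 0.957, 0.996 and 0.924 in V. At 72 h they were 1.14, 1.18 and 1.15 in DOX and 0.891, 0.855 and 0.851 in V. At both times they lowered DOX values relative to V, and the sizes of the changes depend on them. Library totals ran from 9255651 to 11074450 expected counts in V, DOX and DOXH at 16 h, from 17664060 to 19869050 in H, and from 16607805 to 20587578 at 72 h. The DOXH libraries stood apart from each other. On the first principal component at 16 h, which carried 60.8% of the variance, they lay at 8.28, 35.1 and -17.7 for replicates 1, 2 and 3, while the DOX libraries spanned 29.4 to 42.2 and the V libraries -20.7 to -18.0. Replicate 2 thus lay among the DOX libraries and replicate 3 next to the V libraries, and the DOXH results for the genes that fell in DOX are also given without each of them. All 15 cardiomyocyte markers examined were present in every group, as the heart label implies, and none was at 0.

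In vehicle hearts at 16 h, Pink1 had the highest level per transcript length, 225 ± 6.15 CPM per kb (SD, n = 3), where length is that of the longest annotated transcript. Mfn2 followed at 154 ± 12.3 CPM per kb, Bnip3 at 104 ± 13.6, Mfn1 at 65.9 ± 3.87 and Fis1 at 53.5 ± 1.74. Opa1 at 35.1 ± 2.18 and Dnm1l at 32.8 ± 0.743 CPM per kb overlapped in their libraries, and below them stood Mff at 26.9 ± 0.733, Bnip3l at 18.8 ± 1.58 and Fundc1 at 12.2 ± 0.562. The other 8 neighbouring pairs in this order did not overlap. At 72 h the order of V and that of DOX differed at both ends. In V, Pink1 (210.0 ± 16.4 CPM per kb) led Mfn2 (120 ± 11.04) and Bnip3 (91.5 ± 8.15), with no overlap between them. The mean of Opa1 (29.4 ± 3.08) stood above those of Dnm1l (27.9 ± 2.48), Mff, Bnip3l and Fundc1. Its libraries overlapped with those of Dnm1l and of Mff. In DOX, Bnip3 (275 ± 43.7 CPM per kb) and Pink1 (258 ± 15.6) overlapped at the top, and Opa1, at 11.6 ± 0.57 CPM per kb, stood just above Fundc1, at 10.8 ± 0.352.

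**Figure D1:**
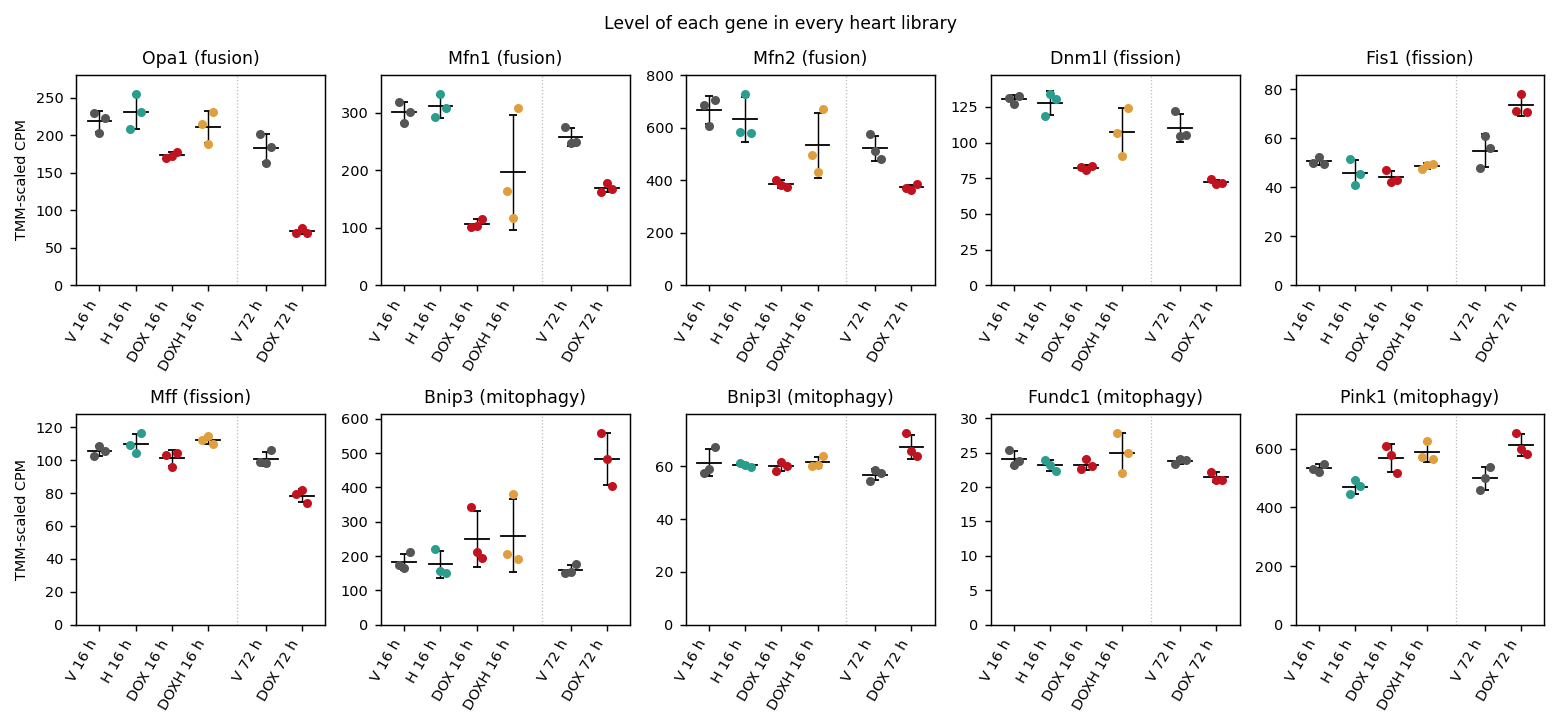
TMM-scaled CPM (vertical axes, each starting at 0) of the 10 genes in every library of the 6 groups; points are libraries, bars the mean and SD of 3, and the dotted line separates the tables of 16 h and 72 h. Mfn1 has the lowest DOX values of 16 h relative to V, while Opa1 (lower) and Bnip3 (higher) have the widest gaps between DOX and V at 72 h.

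In DOX hearts the 3 fusion genes and Dnm1l were lower than in V at both times, and Fis1 and 3 mitophagy genes were higher at 72 h. At 16 h, 4 of the 10 genes fell (Opa1, Mfn1, Mfn2 and Dnm1l) and none rose at an edgeR adjusted p under 0.05, against a background of 32.3% of all genes called in either direction and 16.6% called lower. At 72 h, 5 fell (the same 4 and Mff) and 4 rose (Fis1, Bnip3, Bnip3l and Pink1), beside 53.7% of all genes called, 27.2% lower and 26.5% higher. Fundc1 passed at neither time. The share of members called at 16 h was thus near the background. DOX and V did not overlap for 5 genes at 16 h (the 4 that fell and Fis1), against 56.4% of all genes, and for all 10 at 72 h, against 63.5%. The 4 genes that fell at both times belong to a pattern shared by 933 of 7405 genes tested at both (12.6%). Fis1, Bnip3, Bnip3l and Pink1 belong to the 18.6% of genes that passed at 72 h alone, upwards. In these bulk hearts, fewer cells of a type and less RNA per cell cannot be told apart. The 15 cardiomyocyte markers summed to 68084 to 77189 CPM in V and 38550 to 40386 CPM in DOX at 16 h, with 15 of 15 lower, and to 55777 to 66547 CPM in V and 23083 to 27922 CPM in DOX at 72 h, with 14 of 15 lower. Their part in the changes of the 10 genes was not tested.

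**Figure D2:**
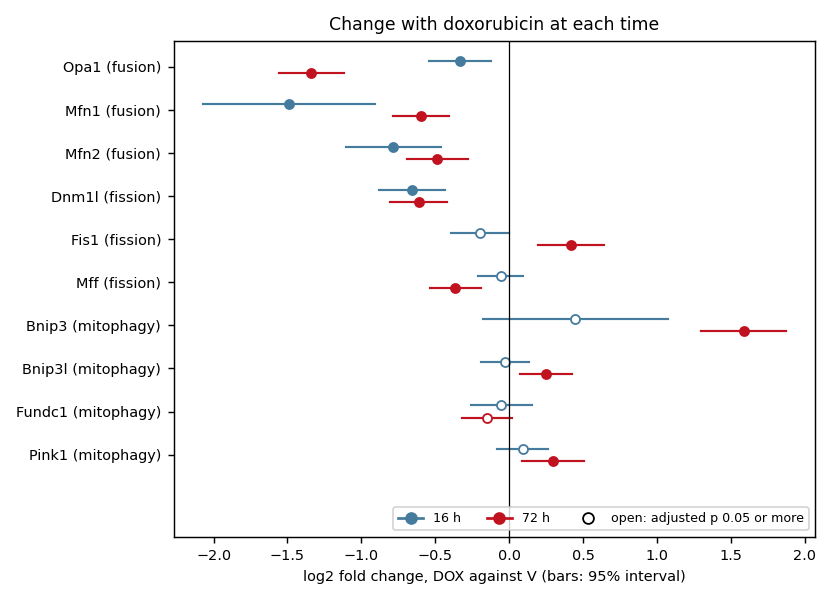
Log2 fold change of each gene in DOX against V (horizontal axis) at 16 h (blue) and 72 h (red), with 95% intervals from the edgeR fit; open points have an adjusted p of 0.05 or more. The 3 fusion genes and Dnm1l lie left of 0 at both times, while Bnip3 at 72 h lies farthest to the right, at 1.59.

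Opa1 encodes the inner-membrane fusion GTPase and lies on chromosome 16 from 29579334 to 29654884 on the plus strand (GRCm38, GENCODE annotation). The stretch before its annotated start is shown because its fall at 72 h was the steepest of the 10. It spans chr16:29579084-29579333 on the plus strand (RefSeq, GRCm38.p6), and the capitals mark 3 adjoining matches to GCGCA, 2 on the plus and 1 on the minus strand, the last 2 of which overlap, the half-site of the mitochondrial biogenesis factor NRF1. GCGCA is present in 30.4% of 32851 promoter windows of 300 bases and in a window of 6 of the 9 members that have one.
Opa1: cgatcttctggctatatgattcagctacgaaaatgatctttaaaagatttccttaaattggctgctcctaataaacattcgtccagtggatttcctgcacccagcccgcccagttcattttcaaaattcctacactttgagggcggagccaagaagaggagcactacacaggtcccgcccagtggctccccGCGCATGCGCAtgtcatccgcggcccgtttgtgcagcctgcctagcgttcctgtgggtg
At 16 h Opa1 read 229, 203 and 223 CPM in V and 170.3, 172 and 178 CPM in DOX. Every DOX library lay below every V library. Its log2 fold change was -0.33 ± 0.10 (SE; edgeR adjusted p = 0.0224), but leaving out DOX 1, DOX 2, V 1 or V 3 ended the call, with values of -0.33 to -0.30 and adjusted p of 0.0585 to 0.0815. By 72 h the level was 202, 163 and 184 CPM in V and 70.2, 76.4 and 70.4 CPM in DOX. The groups were far apart, with a log2 fold change of -1.34 ± 0.10 (95% interval -1.56 to -1.12; adjusted p = 2.91e-05), or 0.395 of the vehicle level. The change at 72 h minus that at 16 h was -1.02 ± 0.14 on the log2 scale (adjusted p = 0.000296).

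Mfn1, one of the mitofusins of the outer membrane (chromosome 3, 32529465 to 32579239, plus strand), had its larger fall at 16 h. The stretch before its start, chr3:32529232-32529464 on the plus strand, is shown as a contrast to that of Opa1. It has no capitals, because its window held none of the 6 motifs searched on both strands. These were the hypoxia response core ACGTG, the E-box CACGTG that contains it, the FOXO motif GTAAACA, the NRF1 half-site GCGCA, the estrogen-related receptor half-site AAGGTCA (in 4.72% of windows) and its longer form TNAAGGTCA (1.28%), which contains the half-site.
Mfn1: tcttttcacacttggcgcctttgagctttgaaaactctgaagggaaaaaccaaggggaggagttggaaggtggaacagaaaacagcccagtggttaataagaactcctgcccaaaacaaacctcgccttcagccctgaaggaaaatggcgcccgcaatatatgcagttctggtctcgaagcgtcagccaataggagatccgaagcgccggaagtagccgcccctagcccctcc
At 16 h Mfn1 read 318, 283 and 301 CPM in V and 102, 103 and 116 CPM in DOX. All DOX libraries lay far below the lowest V library, and the fold change was 0.356 (log2 -1.49 ± 0.26, 95% interval -2.07 to -0.91; edgeR adjusted p = 0.00371). At the later time it read 276, 247 and 249.2 CPM in V and 163, 179 and 168 CPM in DOX. The groups again did not overlap, and the log2 fold change was -0.60 ± 0.08 (adjusted p = 0.000406). The smaller fall at 72 h gave a difference between times of 0.88 ± 0.32, just short of the threshold (adjusted p = 0.0534). It passed with DESeq2 (0.87, adjusted p = 0.0234), limma voom (0.88, adjusted p = 0.0498) and only the V and DOX groups in the fit (0.87, adjusted p = 0.000129). It did not pass in the other 4 settings (adjusted p up to 0.12). With any 1 library left out it also did not pass (edgeR adjusted p of 0.0678 to 0.0999).

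Mfn2, the mitofusin that also tethers mitochondria to the endoplasmic reticulum (chromosome 4, 147873599 to 147904704, minus strand), fell by less. It read 688, 606 and 706 CPM in V and 403, 381 and 376 CPM in DOX at 16 h (log2 fold change -0.79 ± 0.15, edgeR adjusted p = 0.00415). The values of 72 h were 575, 509.9 and 481 CPM in V and 372, 363 and 384 CPM in DOX (log2 fold change -0.49 ± 0.09, adjusted p = 0.00191). The groups did not overlap at either time. The difference between the times was 0.29 ± 0.19 (adjusted p = 0.265, 95% interval -0.11 to 0.69).

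Dnm1l, which encodes the fission GTPase DRP1 (chromosome 16, 16312230 to 16358959, minus strand), had the most even change of the 10. Its level was 131, 127 and 132 CPM in V and 83.1, 80.5 and 83.6 CPM in DOX at 16 h. Those of 72 h were 122, 104 and 105 CPM in V and 74.3, 70.7 and 71.7 CPM in DOX. Every DOX library lay below every V library at both times, by -0.66 ± 0.10 (edgeR adjusted p = 0.0026) and -0.61 ± 0.09 (adjusted p = 0.000404) on the log2 scale. Those changes differed by 0.04 ± 0.14 (adjusted p = 0.865), with a 95% interval from -0.25 to 0.33.

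The fission adaptors followed Dnm1l only in part, since Mff fell at 72 h alone and Fis1 rose there. Fis1, a small tail-anchored protein of the outer membrane (chromosome 5, 136953275 to 136966234, plus strand), read 49.8, 52.6 and 49.6 CPM in V and 47.0, 42.2 and 43.2 CPM in DOX at 16 h. The groups did not overlap, but the log2 difference of -0.20 ± 0.09 did not pass (edgeR adjusted p = 0.104); with only V and DOX in the fit it did (adjusted p = 0.0453). By 72 h it stood at 47.9, 61.1 and 56.0 CPM in V and 71.3, 78.2 and 70.9 CPM in DOX. All 3 DOX libraries now lay above V, with a log2 fold change of 0.42 ± 0.10 (adjusted p = 0.00621), and the difference between times was 0.61 ± 0.13 (adjusted p = 0.00363). Mff, the main docking factor for DRP1 (chromosome 1, 82724890 to 82752394, plus strand), read 103, 108 and 105 CPM in V and 103, 96.0 and 105 CPM in DOX at 16 h, with overlapping groups (-0.06 ± 0.07, adjusted p = 0.535). The 72 h libraries read 98.8, 98.2 and 106 CPM in V and 79.6, 81.8 and 74.1 CPM in DOX. DOX lay below V throughout, by -0.36 ± 0.08 (adjusted p = 0.00379), and the difference between times was -0.31 ± 0.09 (adjusted p = 0.0203). That call was lost without V 1 of 16 h (-0.30, adjusted p = 0.0509) or V 3 of 72 h (-0.28, adjusted p = 0.0526), and with a block for the replicate number (-0.24, adjusted p = 0.151).

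Bnip3, a BH3-like outer-membrane receptor known as a target of hypoxia-inducible factors, had the widest change among the mitophagy genes. It lies on chromosome 7 from 138890836 to 138909519 on the minus strand. The stretch before its start, chr7:138909520-138909756 on the minus strand, is shown because it holds the hypoxia response core ACGTG. It is in capitals within CACGTG, where the core reads on both strands. These capitals lie 108 to 103 bases before the RefSeq start site, which lies inside the gene span given above. The printed stretch ends before that span, so it stops short of the RefSeq start site. ACGTG was present in 19.6% and CACGTG in 7.15% of all promoter windows.
Bnip3: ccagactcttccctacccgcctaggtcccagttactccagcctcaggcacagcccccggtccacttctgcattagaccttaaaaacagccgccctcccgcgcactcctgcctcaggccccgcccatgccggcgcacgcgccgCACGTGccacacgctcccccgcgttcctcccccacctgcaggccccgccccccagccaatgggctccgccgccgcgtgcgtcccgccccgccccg
At 16 h Bnip3 read 173, 166 and 211 CPM in V and 343, 212 and 194 CPM in DOX. The groups overlapped, since DOX 1 was high and DOX 3 lay below the highest V library, and the log2 difference of 0.45 ± 0.28 did not pass (edgeR adjusted p = 0.241). Without DOX 1 it was 0.15 (adjusted p = 0.718), and with any other library left out it ran from 0.38 to 0.60. The later libraries read 151, 154 and 177 CPM in V and 558, 484 and 405 CPM in DOX. All DOX libraries were far above V, a fold change of 3.00 (log2 1.59 ± 0.13, 95% interval 1.30 to 1.87; adjusted p = 3.47e-05). The difference between times was 1.13 ± 0.36 (adjusted p = 0.0313). It lay close to the threshold: leaving out DOX 2, DOX 3 or V 3 of 16 h, or DOX 1, DOX 2, V 1 or V 2 of 72 h, ended the call, with log2 values of 0.97 to 1.12 and adjusted p of 0.0523 to 0.0814, as did the replicate block (1.35, adjusted p = 0.0546).

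Bnip3l, the close relative of Bnip3 that clears mitochondria from maturing red cells, lies on chromosome 14 from 66985239 to 67008877 on the minus strand. It read 57.6, 59.0 and 67.1 CPM in V and 58.0, 61.6 and 60.1 CPM in DOX at 16 h, with overlapping groups (-0.03 ± 0.07, edgeR adjusted p = 0.773). At 72 h it read 54.4, 58.5 and 57.4 CPM in V and 72.5, 65.9 and 63.9 CPM in DOX (log2 fold change 0.25 ± 0.08, adjusted p = 0.0227). The groups did not overlap, but leaving out DOX 1, V 1, V 2 or V 3 ended the call (0.19 to 0.27, adjusted p of 0.0545 to 0.0818). The 6 erythroid markers tested, of 9 listed, summed to 1457 to 3552 CPM in V and 33.5 to 46.4 CPM in DOX at 72 h. All 6 were lower and none was at 0, and their part was not tested. The difference between times was 0.27 ± 0.10 (adjusted p = 0.0519).

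Fundc1, a hypoxia-responsive mitophagy receptor on chromosome X (17556564 to 17572325, minus strand), passed in no comparison. It read 25.4, 23.2 and 23.8 CPM in V and 22.6, 24.1 and 23.0 CPM in DOX at 16 h (-0.05 ± 0.09, edgeR adjusted p = 0.687). At 72 h it read 23.3, 24.1 and 23.9 CPM in V and 22.2, 20.97 and 21.1 CPM in DOX. The DOX libraries of 72 h were all lower, yet the log2 difference of -0.15 ± 0.08 did not pass (adjusted p = 0.12, 95% interval -0.32 to 0.02). Pink1, the kinase that phosphorylates ubiquitin on damaged mitochondria (chromosome 4, 138313409 to 138326307, minus strand), read 531, 519.9 and 549 CPM in V and 608, 579 and 517 CPM in DOX at 16 h, with overlapping groups (0.09 ± 0.08, adjusted p = 0.387). At 72 h it read 459, 499.8 and 537 CPM in V and 653, 600.2 and 581 CPM in DOX. DOX lay above V by 0.29 ± 0.09 on the log2 scale (adjusted p = 0.024), a call that ended without DOX 1, V 1 or V 2 (0.24 to 0.29, adjusted p of 0.0662 to 0.0809). The difference between times was 0.20 ± 0.11 (adjusted p = 0.197).

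Across the 10 genes, the doxorubicin change differed between 72 h and 16 h for 4: Fis1 and Bnip3 moved upwards and Opa1 and Mff downwards. Among the 7407 genes present at both times, the share that passed this test was 26.5% (12.6% upwards, 13.8% downwards). The fall of Mfn1 was larger in size at 16 h and that of Opa1 at 72 h, and for Opa1 that difference passed the test. The expected counts were not whole numbers, as happens when reads are shared between genes, in 18 of 18 libraries for Mff and 17 of 18 for Dnm1l, Bnip3 and Bnip3l, and in 0 of 18 for the other 6. Exons of Bnip3 overlap the opposite-strand model Gm45507 over 504 bases, those of Dnm1l overlap Gm49521 over 243 bases and those of Mff overlap C430014B12Rik over 195 bases. Since the strand setting is not given in the sources used here, reads of these partners cannot be told apart.

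With hesperitin alone, no difference from vehicle passed the test, and the libraries overlapped for all but 1 gene. In H against V, edgeR called 0 of the 10 genes (0% of all genes), 1 had an unadjusted p under 0.05 (6.39% of all genes) and DESeq2 called 0 (0.145%). That gene was Pink1, which read 445, 492 and 473 CPM in H against 531, 519.9 and 549 CPM in V. Its H libraries all lay below V, beside 15.6% of all genes with groups apart in either direction. The log2 difference for Pink1 was -0.18 ± 0.08 (edgeR adjusted p = 0.769). The H libraries also held more counts than the other groups of 16 h. For the remaining 9 genes the groups overlapped, and the log2 differences ran from -0.14 (Fis1) to 0.08 (Opa1). The widest intervals were those of Mfn1, from -0.52 to 0.61, and Bnip3, from -0.68 to 0.57, so changes of such sizes were not detectable here.

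With hesperitin added to doxorubicin, the genes that fell at 16 h stood between the DOX and V levels on average, but the 3 DOXH libraries disagreed. In DOXH against DOX, edgeR called 0 of the 10 genes (0% of all genes), while 4 had an unadjusted p under 0.05, beside 18.8% of all genes, and DESeq2 called 3, beside 5.29% of the genes to which it gave an adjusted p. Mfn1 read 165, 117 and 309 CPM in DOXH replicates 1, 2 and 3, where DOX spanned 102 to 116 CPM and V 283 to 318 CPM. Replicate 3 lay within the V range and replicate 2 just above the DOX range. The log2 difference from DOX was 0.88 ± 0.26 (95% interval 0.30 to 1.45; edgeR adjusted p = 0.152; DESeq2 adjusted p = 0.0201). Dnm1l read 106, 90.7 and 124 CPM in DOXH, 0.38 ± 0.10 above DOX (edgeR adjusted p = 0.131; DESeq2 adjusted p = 0.0189). Mfn2 read 497, 429.8 and 672 CPM, 0.46 ± 0.15 above DOX (edgeR adjusted p = 0.161; DESeq2 adjusted p = 0.0496), and Opa1 read 214, 188 and 231 CPM, 0.28 ± 0.10 above DOX (edgeR adjusted p = 0.176). In all 4 genes replicate 2 was the lowest and replicate 3 the highest. DOXH lay above DOX without overlap for 6 genes (these 4, Fis1 and Mff), beside 18.8% of all genes with groups apart in either direction. The comparison turned on which DOXH library was in it. Without DOXH 2, the 4 genes passed, beside 15% of all genes: Opa1 at 0.36 (adjusted p = 0.0271), Mfn1 at 1.14 (adjusted p = 0.00806), Mfn2 at 0.60 (adjusted p = 0.0167) and Dnm1l at 0.49 (adjusted p = 0.00764). Without DOXH 3, 0 of the 10 passed (0% of all genes), and the same genes stood at 0.21 (adjusted p = 0.475), 0.39 (adjusted p = 0.347), 0.26 (adjusted p = 0.46) and 0.26 (adjusted p = 0.358). The sum of the cardiomyocyte markers in DOXH ran from 45962 to 73988 CPM, above the 38550 to 40386 CPM of DOX. In DOXH against DOX, edgeR called 0 of these 15 markers (0% of all genes). An unadjusted p under 0.05 was found for 14 of them, beside 18.8% of all genes. Their part in the changes of the 10 genes was not tested.

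**Figure D3:**
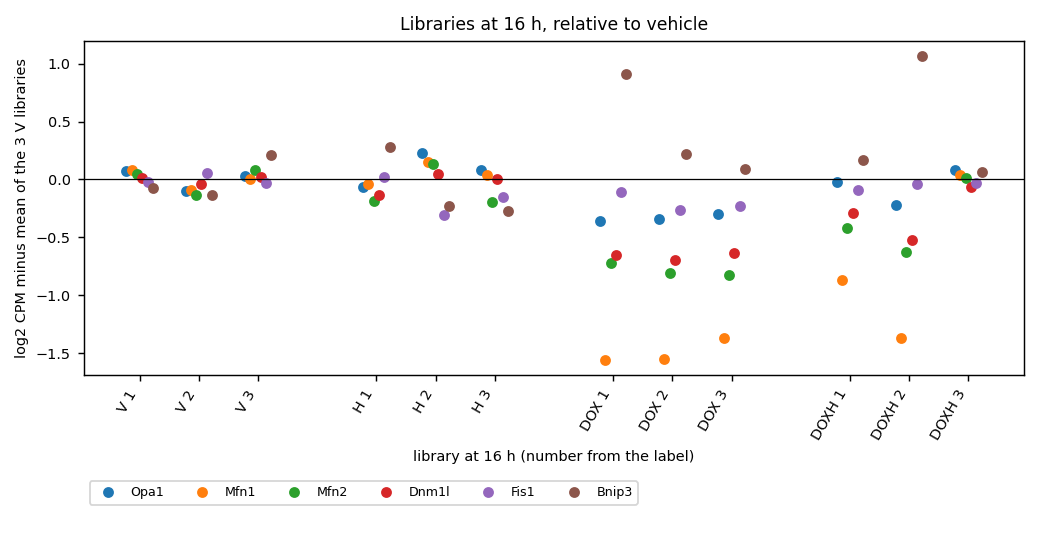
Log2 CPM of 6 genes minus the mean of the 3 V libraries (vertical axis) in each library of 16 h, labelled by group and replicate number. In DOXH, replicate 3 sits near 0 for all 6 genes, while replicate 2 has a low Mfn1 (-1.37), as have the DOX libraries (-1.55 to -1.37), and a Bnip3 of 1.07, where the DOX libraries lie at 0.91, 0.22 and 0.09.

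The mitophagy genes did not share this order. Bnip3 read 205, 382 and 190.4 CPM in DOXH, with the single high library being replicate 2, and differed from DOX by 0.05 ± 0.28 (edgeR adjusted p = 0.941, 95% interval -0.57 to 0.67). Without DOXH 2 that difference was -0.34 (adjusted p = 0.372) and without DOXH 3 it was 0.23 (adjusted p = 0.842). Its coefficient of variation was the highest of the 10 genes in V, H and DOX at 16 h and in DOX at 72 h. At 16 h it was 32.4% in DOX and 41.1% in DOXH, where that of Mfn1 was higher, at 50.8%. Bnip3l, Fundc1 and Pink1 differed between DOXH and DOX by 0.04, 0.10 and 0.05 on the log2 scale, with overlapping groups and adjusted p of 0.813, 0.583 and 0.756. Pink1 read 571, 627 and 565 CPM in DOXH, all above the 3 H libraries, beside 21% of all genes with groups apart in either direction. The log2 difference from H was 0.32 ± 0.08 (edgeR adjusted p = 0.0671; DESeq2 adjusted p = 0.00507; 0.35 and edgeR adjusted p = 0.0155 without DOXH 3; 0.27 and edgeR adjusted p = 0.212 without DOXH 2).

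Against V, DOXH showed 0 calls among the 10 genes with edgeR (0% of all genes), 3 at an unadjusted p under 0.05 (16.8% of all genes) and 0 with DESeq2 (1.26%). Those 3 were Mfn1 (-0.61 ± 0.26, adjusted p = 0.278), Mfn2 (-0.32 ± 0.15, adjusted p = 0.294) and Dnm1l (-0.28 ± 0.10, adjusted p = 0.245). Without DOXH 3 all of them passed, beside 16.1% of all genes, at -1.10 (adjusted p = 0.00064), -0.53 (adjusted p = 0.0118) and -0.40 (adjusted p = 0.0115). Without DOXH 2 none did (0% of all genes), at -0.34 (adjusted p = 0.684), -0.19 (adjusted p = 0.738) and -0.17 (adjusted p = 0.656). DOXH and V did not overlap for Dnm1l and Fis1 (lower) and for Mff and Pink1 (higher), against 19.2% of all genes. Against H, edgeR called 0 of the 10 (0.154% of all genes, 0.115% higher and 0.0385% lower), 3 had an unadjusted p under 0.05 (Mfn1, Dnm1l and Pink1; 24.6% of all genes) and DESeq2 called 1 (6.91%). Without DOXH 3, Mfn1 (-1.14), Mfn2 (-0.45), Dnm1l (-0.37) and Pink1 (0.35) passed there, beside 22.1% of all genes. Without DOXH 2 none of the 10 passed (0.0289% of all genes), with Mfn1 at -0.39, Mfn2 at -0.11 and Dnm1l at -0.15. The interaction, which asks whether hesperitin changed these genes differently with and without doxorubicin, had 0 calls with edgeR (0% of all genes), 4 at an unadjusted p under 0.05 (11.8% of all genes) and 0 with DESeq2 (0.51%). Its values were 0.83 ± 0.37 for Mfn1 (adjusted p = 0.418), 0.54 ± 0.21 for Mfn2 (adjusted p = 0.379), 0.41 ± 0.14 for Dnm1l (adjusted p = 0.366) and 0.28 ± 0.13 for Fis1 (adjusted p = 0.418). Without DOXH 2, Dnm1l passed (0.51, adjusted p = 0.0456), beside 2.44% of all genes. Without DOXH 3 none passed (0% of all genes), with Mfn1 at 0.35 (adjusted p = 0.609), Mfn2 at 0.34 (adjusted p = 0.569) and Dnm1l at 0.29 (adjusted p = 0.535).

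Ratios within a library describe how the members stood to each other and carry no test here. Mfn1 made up 30.1 ± 1.03% of mitofusin transcripts per length in V at 16 h and 20.8 ± 1.68% in DOX (SD, n = 3). In DOXH it made up 24.0, 20.5 and 30.4%, and in H 32.01 ± 1.61%. At 72 h the shares were 31.96 ± 0.910% in V and 30.2 ± 1.46% in DOX, and the difference between the times was not tested. The ratio of Bnip3 to Bnip3l per length was 5.54 ± 0.300 in V and 10.98, 6.39 and 5.999 in the DOX libraries at 16 h. At 72 h that ratio was 5.26 ± 0.434 in V and 13.2 ± 1.31 in DOX. The mean log2 level per length of the 3 fusion genes exceeded that of the 3 fission genes by 0.97 ± 0.11 in V and 0.41 ± 0.05 in DOX at 16 h. It exceeded it by 0.75 ± 0.14 in V and 0.13 ± 0.04 in DOX at 72 h. All 3 DOX libraries lay below all V libraries at 16 h and at 72 h.

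**Figure D4:**
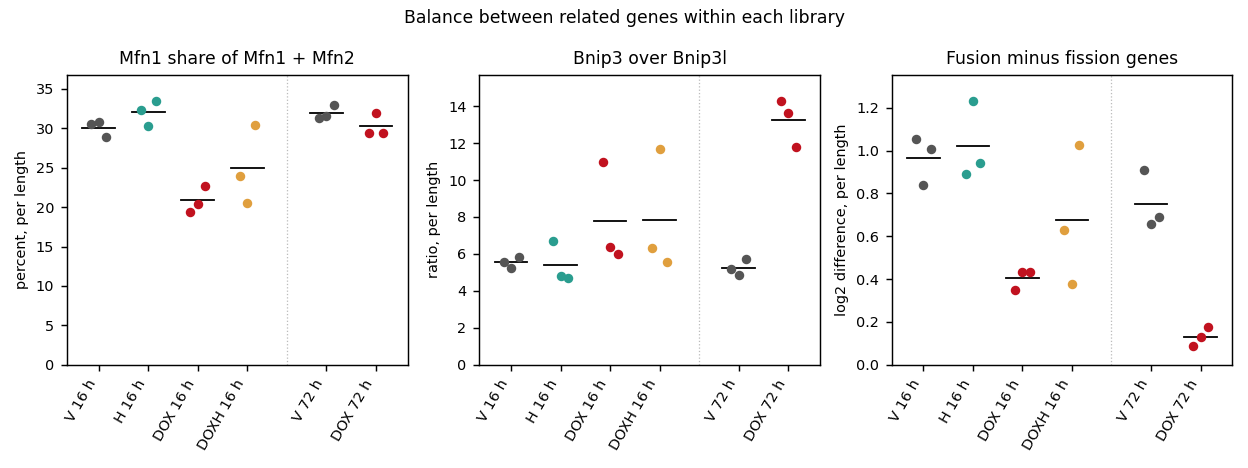
Per library, the Mfn1 share of both mitofusins (percent), the ratio of Bnip3 to Bnip3l, and the mean log2 level of the fusion genes minus that of the fission genes, all per transcript length; points are libraries and bars group means. The Mfn1 share is low in DOX at 16 h, and the Bnip3 ratio is high in all 3 DOX libraries at 72 h.

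Other genes of these processes were counted from lists that do not include the 10. Every list count of DOX against V stands beside the share of all genes called. That share was 32.3% at 16 h (15.6% higher, 16.6% lower) and 53.7% at 72 h (26.5% higher, 27.2% lower). In the fusion and cristae list, 6 of 12 tested genes fell and 0 rose in DOX at 16 h (median -0.25 against 0.02 for all genes), and 7 of 12 fell and 0 rose at 72 h (median -0.42 against 0.01). Chchd3, a subunit of the cristae-organising MICOS complex, fell by 0.59 at 16 h and by 0.61 at 72 h on the log2 scale (edgeR adjusted p = 0.00211 and adjusted p = 0.000399). Immt, the core of the same complex, fell by 0.65 at 72 h, and Phb, a prohibitin that stabilises Opa1 processing, fell by 0.47 at 16 h. Oma1, the stress protease that cuts Opa1, was -0.07 at 16 h (adjusted p = 0.689) and fell by 0.76 at 72 h, and this difference between times passed (-0.70 ± 0.17, adjusted p = 0.00751).

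Among fission regulators, 2 of 14 rose and 3 fell at 16 h (median -0.10), and 1 of 12 rose and 5 fell at 72 h (median -0.25). Mtfp1, an inner-membrane fission protein, fell by 1.38 at 16 h and by 1.51 at 72 h (edgeR adjusted p = 0.00269 and adjusted p = 6.58e-05). Inf2, a formin that builds actin at fission sites, fell by 0.42 at 16 h and rose by 0.97 at 72 h. That difference between times was 1.37 ± 0.15 (adjusted p = 6.93e-05). Among genes of mitochondrial transport, 4 of 9 fell at 16 h and 6 of 8 at 72 h, and 0 rose at either time. Rhot2, one of the Miro GTPases that are also Pink1 pathway substrates, fell by 0.61 and by 1.13, and the adaptor Trak1, which links mitochondria to motors, fell by 0.73 and by 0.93.

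In the list of mitophagy receptors and adaptors, 5 of 25 rose and 2 fell at 16 h (median 0.03), and 12 of 22 rose and 4 fell at 72 h (median 0.27, against 0.01 for all genes). The genes of the LC3 family, which receptors such as Bnip3 bind, were among those that rose at 72 h: Gabarapl1 by 1.17 ± 0.10 (edgeR adjusted p = 4.37e-05) and Map1lc3b by 0.97 ± 0.10 (adjusted p = 8.13e-05). Sqstm1, the ubiquitin-binding adaptor p62, rose by 0.69 ± 0.09 (adjusted p = 0.00028). Optn, an adaptor recruited downstream of Pink1, fell by 1.15 ± 0.17 at 16 h (adjusted p = 0.00251), was -0.13 at 72 h (adjusted p = 0.146), and the difference between times passed (1.01 ± 0.21, adjusted p = 0.00291).

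Among upstream factors, 1 of 14 rose and 4 fell at 16 h (median -0.11), and 2 of 13 rose and 7 fell at 72 h (median -0.31). Esrrg, a nuclear receptor that drives mitochondrial genes in heart, fell by 1.38 at 16 h and by 0.97 at 72 h (edgeR adjusted p = 0.00253 and adjusted p = 4.33e-05). The coactivator gene Ppargc1b fell by 1.39 at 72 h. Hif1a, a hypoxia-inducible factor subunit, was -0.18 ± 0.09 at 16 h (adjusted p = 0.159) and rose by 0.41 ± 0.09 at 72 h (adjusted p = 0.004), a difference of 0.58 ± 0.13 (adjusted p = 0.00525). Epas1, of the same family, went another way. It fell by 0.29 ± 0.09 at 16 h (edgeR adjusted p = 0.0258) and was 0.08 ± 0.11 at 72 h (adjusted p = 0.527). Foxo3, a factor known to raise Bnip3 and Bnip3l in muscle, was 0.50 ± 0.19 at 16 h (adjusted p = 0.0611) and fell by 0.74 ± 0.13 at 72 h (adjusted p = 0.00174). Its relative Foxo1 rose by 0.58 ± 0.17 at 16 h (edgeR adjusted p = 0.026) and was 0.02 ± 0.10 at 72 h (adjusted p = 0.876). The promoter windows of the 9 members that had one held no match to the FOXO letters GTAAACA, which 3.65% of all windows hold. ACGTG was matched in that of Bnip3 and in 2 of 3 windows of Mfn2, which overlap and share the same site.

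**Figure D5:**
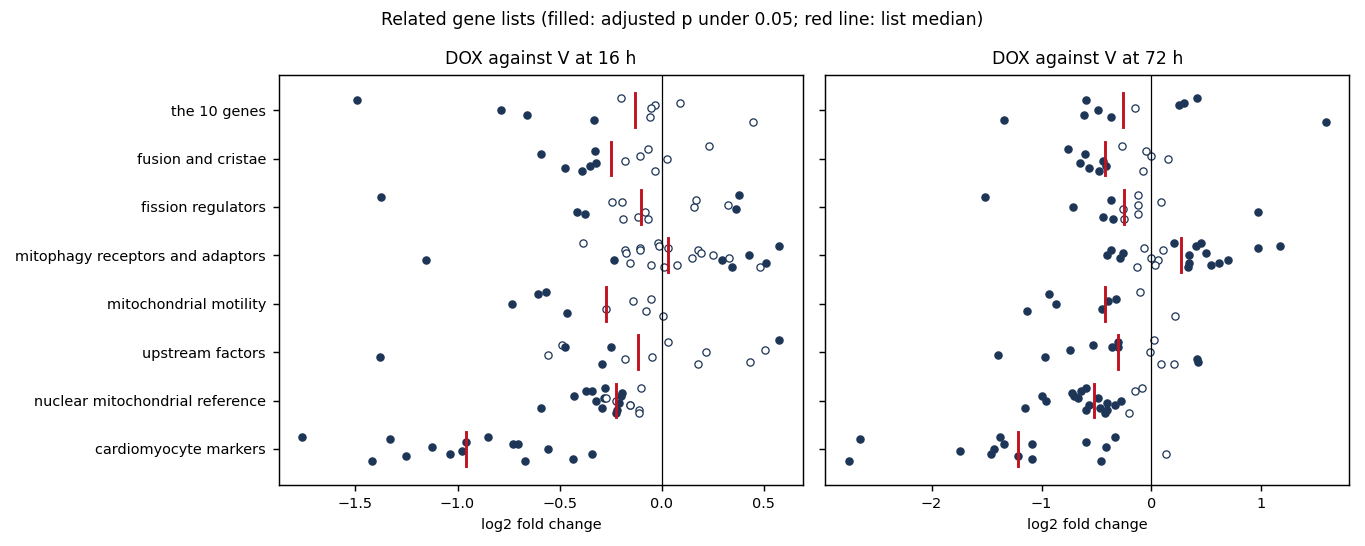
Log2 fold change of DOX against V at 16 h (left) and 72 h (right) for the 10 genes and 7 other lists; each point is a gene, filled where the adjusted p is under 0.05, and red lines are list medians. Every median shown lies below 0 at both times except that of the mitophagy list, which is 0.03 at 16 h and 0.27 at 72 h.

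As a reference, 20 nuclear genes of mitochondrial metabolism and import were counted. At 16 h 13 fell and 0 rose (median -0.22), and at 72 h 17 fell and 0 rose (median -0.53). Their sum was 21041 to 22493 CPM in V and 17956 to 19313 CPM in DOX at 16 h, and 18544 to 19406 CPM in V and 12810 to 13840 CPM in DOX at 72 h. Beside the 16 h median stood Opa1 at -0.33, Dnm1l at -0.66, Mfn2 at -0.79 and Mfn1 at -1.49. Beside the 72 h median stood Mff at -0.36, Mfn2 at -0.49, Mfn1 at -0.60, Dnm1l at -0.61 and Opa1 at -1.34, with Mff and Mfn2 above that median and the other 3 below it. Of the other cell types, endothelial markers had 0 higher and 2 lower of 10 at 16 h and 6 higher and 1 lower of 10 at 72 h, and their sum at 72 h was 1037 to 1159 CPM in V and 1381 to 1946 CPM in DOX. Macrophage markers had 1 higher and 1 lower of 9, then 5 higher and 1 lower of 8, with sums at 72 h of 152 to 193 CPM in V and 236 to 308 CPM in DOX. Fibroblast markers had 0 of 10 called at 16 h, and 3 higher and 1 lower of 9 at 72 h. Mural cell markers had 3 of 9 and 2 of 9 lower, and 0 higher. Neutrophil markers had 0 of 6 called at 16 h, where 4 had an unadjusted p under 0.05, the median log2 difference was 2.27 and the sums were 22.7 to 72.7 CPM in V and 138 to 255 CPM in DOX without overlap. At 72 h only 3 of the 9 listed neutrophil markers were tested, with sums of 0.957 to 1.98 CPM in V and 26.4 to 133 CPM in DOX. All 3 were called higher. Markers this low in V pass a filter on counts mainly through DOX, so this count is not a test. Erythroid markers had 2 of 6 lower at 16 h. Of the markers tested, none was at 0 in any group, while listed markers that were not tested have no value here. The part of these cells in the changes of the 10 genes was not tested.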

How the data were processed

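Poly(A) mRNA of wild-type mouse hearts was sequenced as single-end Illumina reads, per the labels' protocols. The authors deposited expected counts, which are RSEM-style estimates of reads per gene and can hold fractions, as 1 table for each time. The submitters' processing notes name RSEM, DESeq2 and GRCm38 (mm10). For versions, strand setting and filters, nothing is given in the sources used here.

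Expected counts were rounded, filtered with filterByExpr and scaled by TMM (all 10393 genes kept at 16 h, 7703 of 7723 at 72 h). Tests were edgeR 4.0.16 robust quasi-likelihood fits of group means (R 4.3.3; 8, 4 and 12 residual degrees of freedom at 16 h, at 72 h and for both), with Benjamini-Hochberg adjustment over all genes and a threshold of 0.05. The SE is the log2 fold change divided by the square root of F, and intervals are 95%. The fit was tested on simulated counts with 200 changed genes. Depth of 9255651 to 20587578 counts and 3 libraries per group limit precision.

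Groups came from the labels (24 samples in 8 groups of 3). In the 72 h table, 6 columns whose code matches no label were left out, and 1 DOX library, whose number matches no label, entered without a number. Every pair of replicates differed by more than sampling noise. Alternatives were RLE factors, no filter, DESeq2 1.42.0, a minimum mean of 5 CPM, voom of limma 3.58.1, a replicate block, only the groups compared, and each library left out. The members, lists, tests and alternatives were chosen with earlier results of these data known. All members are named, and from each other list up to 4 called genes with the smallest p in DOX against V at each time and up to 2 in other comparisons (2 for markers); fewer are named. Gene models were matched to GENCODE by identifier. Promoter sequences are from RefSeq (GRCm38.p6), matched by symbol for 9 of 10 members; Bnip3l was not matched.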

Additional observations from a re-analysis of the deposited data

Results flagged for a closer look

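The doxorubicin change differed between 72 h and 16 h for 4 of the 10 genes by the edgeR test of that difference. Opa1 differed by -1.02 on the log2 scale (adjusted p = 0.000296), having fallen by 0.33 at 16 h and by 1.34 at 72 h. Fis1 differed by 0.61 (adjusted p = 0.00363), from -0.20, not past the threshold, to a rise of 0.42. Mff differed by -0.31 (adjusted p = 0.0203), from -0.06, not past the threshold, to a fall of 0.36 on that scale. Bnip3 differed by 1.13 (adjusted p = 0.0313), from 0.45, not past the threshold, to a rise of 1.59. In this test 26.5% of all genes passed.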

How the results depend on the processing

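In DOX against V at 72 h, 9 of the 10 genes passed under all 6 other settings, and 7 to 9 with 1 library left out. In DOX against V at 16 h, 4 to 5 passed under other settings and 3 to 4 with 1 library left out. DESeq2 called 3 in DOXH against DOX and 1 in DOXH against H, where edgeR called 0. With 1 library left out, 0 to 4 passed in DOXH against DOX, 0 to 3 in DOXH against V, 0 to 4 in DOXH against H and 0 to 1 in the interaction. For the change between times, 4 passed, 2 with the replicate block, 6 with DESeq2, and 3 to 5 with 1 library left out. The causes were not tested.

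Over all genes, DOX against V at 16 h gave 3352 calls, and 1928 to 2230 without DOX 1, V 1 or V 3. DESeq2 gave 390 calls in DOXH against DOX, 13 in H against V, 131 in DOXH against V and 53 in the interaction, against 0 with edgeR, and 718 in DOXH against H, against 16 (29 with limma voom, 7 with the replicate block, 0 with only those groups). Only the groups compared gave 1 call in DOXH against DOX and 1 in DOXH against V. The highest counts with 1 library left out were 1554 in DOXH against DOX and 254 in the interaction (both without DOXH 2), 1674 in DOXH against V and 2298 in DOXH against H (both without DOXH 3) and 47 in H against V (without H 1). In DOXH against H the lowest was 0. The replicate block gave 1214 calls in the change between times, against 1960.

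Reversals came only with 1 library left out, for uncalled log2 values near 0. In DOXH against DOX, Bnip3 ran from -0.337 to 0.349 and Pink1 from -0.0118 to 0.103. In H against V, Bnip3 ran from -0.256 to 0.0551, Bnip3l from -0.0614 to 0.0517, Dnm1l from -0.0634 to 0.0241 and Mfn1 from -0.00254 to 0.0916. In the interaction, Bnip3 ran from -0.283 to 0.404 and Bnip3l from -0.014 to 0.099. In DOX against V at 16 h, Bnip3l ran from -0.0735 to 0.0395. In DOXH against H, Bnip3l ran from -0.00182 to 0.0411 and Mff from -0.00733 to 0.0744. In DOXH against V, Bnip3l ran from -0.0359 to 0.0771, Fundc1 from -0.041 to 0.132 and Opa1 from -0.12 to 0.0296. In the change between times, Dnm1l ran from -0.00453 to 0.121.

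Replicate numbers were not treated as pairs. At 16 h, libraries deviated together (r over 0.1) in 4 of 18 same-numbered pairs and in 9 of 36 others. At 72 h they did so in 2 of 2 same-numbered pairs and in 0 of 7 others. With 1 DOX library of 72 h lacking a number, these pairs are too few to say whether the numbers pair samples there. RLE factors moved the median of all genes by at most 0.0111 on the log2 scale.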
